A study of Mus musculus with 4 samples.

Results

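Transcript levels of 9 genes that regulate self-renewal of blood stem cells were measured in bone marrow cells that lacked the transcription factor gene Klf7 and in wild-type cells. They were picked by name: Mecom, Prdm16, Meis1, Hlf, Msi2, Hmga2, Gfi1, Gfi1b and Etv6, out of 19938 named genes on the array. Every probe set whose only annotated symbol was one of these names was taken, which gave 10 of the 28939 probe sets tested. Mecom had 2 and the other 8 genes had 1 each.

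There were 2 arrays labelled Klf7-/- (Klf7 knockout) and 2 labelled Klf7+/+ (wild type). All 4 held total RNA of marrow cells from the Lin- c-Kit+ Sca-1+ gate, called KLS cells, the fraction in which stem cells and early progenitors are found. The strain is given as C57Bl/6. Both genotypes came from chimeric mice set up with fetal liver cells, whose marrow mixed knockout and wild-type cells, so both groups had been through that procedure. The labels give no age or sex, no description of the deleted part of Klf7, and not the number of mice behind an array. Errors and p-values therefore describe the spread between these arrays, which may be technical. Because whole sorted populations were measured, fewer cells of a type and less RNA per cell cannot be told apart.

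Blood stem cells renew themselves or differentiate, and a small group of nuclear and RNA-binding proteins keeps that balance. Mecom and Prdm16 are related zinc finger proteins of the PRDM family, and both are needed to maintain mouse stem cells. Meis1 is a homeodomain partner of Hox and Pbx proteins, and Hlf is a bZIP factor concentrated in stem cells. Msi2 binds RNA, Hmga2 is a DNA-bending chromatin protein best known from fetal stem cells, Gfi1 and Gfi1b are related repressors that restrain proliferation, and Etv6 is an ETS-family repressor needed by adult bone marrow stem cells. Klf7 encodes a Kruppel-like factor, a family that binds CACCC and GC-rich DNA.

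The results turn on Mecom, so the DNA at its starts is shown with that of its relative Prdm16. RefSeq (GRCm38.p6) places Mecom on chromosome 3, bases 29951296 to 30509759, on the minus strand, and its promoter table holds 2 starts for it, 496.6 kb apart. The upstream start lies at the end of the annotated gene, in the window chr3:30509710-30510009, and the downstream start in chr3:30013155-30013454. Prdm16 lies on chromosome 4, bases 154316122 to 154637360, also on the minus strand, with the window chr4:154636824-154637123. Meis1, Hlf and Msi2 lie on chromosome 11, Hmga2 on 10, Etv6 on 6, Gfi1 on 5 and Gfi1b on 2. Each window runs from 250 bases before the start to 50 bases after it and is written 5′ to 3′ on the gene's strand. Capitals mark CACCC or its reverse complement GGGTG, and a run of letters that 2 of the windows share.
Mecom start 1: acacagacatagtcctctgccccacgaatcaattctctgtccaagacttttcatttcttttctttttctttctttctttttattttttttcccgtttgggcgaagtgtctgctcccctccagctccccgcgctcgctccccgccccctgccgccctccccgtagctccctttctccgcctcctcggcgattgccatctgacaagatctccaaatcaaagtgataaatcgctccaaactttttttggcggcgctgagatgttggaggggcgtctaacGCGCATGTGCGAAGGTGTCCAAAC
Mecom start 2: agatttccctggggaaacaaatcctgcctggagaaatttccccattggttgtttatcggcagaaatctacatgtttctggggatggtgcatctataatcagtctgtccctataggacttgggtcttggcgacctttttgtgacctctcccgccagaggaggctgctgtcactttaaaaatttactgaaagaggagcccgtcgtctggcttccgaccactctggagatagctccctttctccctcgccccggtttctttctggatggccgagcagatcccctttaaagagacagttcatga
Prdm16: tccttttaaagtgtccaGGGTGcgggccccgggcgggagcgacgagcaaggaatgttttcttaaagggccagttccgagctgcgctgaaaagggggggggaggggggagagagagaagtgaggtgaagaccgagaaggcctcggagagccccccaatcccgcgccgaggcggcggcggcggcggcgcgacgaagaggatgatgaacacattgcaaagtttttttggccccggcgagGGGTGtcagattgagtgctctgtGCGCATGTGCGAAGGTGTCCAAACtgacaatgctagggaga

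The upstream Mecom window and the Prdm16 window shared an unbroken run of 24 bases, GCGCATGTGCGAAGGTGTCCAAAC. It begins at transcribed base 27 of Mecom, where it ends with the window, and at transcribed base 10 of Prdm16. Of the 32851 promoter windows in the table, only 2 held this run on either strand, these of Mecom and Prdm16. Over the 73 pairs of windows from different member genes, the next longest shared run was 14 bases, between the downstream Mecom window and that of Gfi1b. CACCC, searched on both strands, was in neither Mecom window and occurred 2 times in that of Prdm16. It was present in 10 of the 13 member windows and in at least 1 window of 8 of the 9 genes, with 3 copies in Meis1 and in each of the 3 overlapping Msi2 windows. Of all windows in the table, 57.5% held it. The GC box letters CCGCCC, searched the same way, were in 9 of 13 member windows and in 35.7% of all windows. The 9 include the 3 overlapping Msi2 windows, and by gene it was 7 of 9. The upstream Mecom window held 2 copies and the downstream one held 0. These matches describe letters in the windows and say nothing about binding.

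The arrays as a whole were close to each other, with correlations of log2 intensity over all probe sets between 0.961 and 0.969, where probe sets are not independent replicates. Knockout was compared with wild type by limma over all tested probe sets, with differences in log2 units, knockout minus wild type, and Benjamini-Hochberg adjusted p-values. The threshold of 0.05 was passed by 1 probe set, 0.00346% of those tested. That was Xist, the RNA of the inactive X chromosome, at 11.76 and 11.58 in the knockout arrays, against 5.24 and 4.80 in the wild-type arrays. Its adjusted p was 0.0454, and the call was lost in 10 of 12 alternatives, each left-out array among them, while the difference stayed between 5.67 and 6.87. The Y-linked gene Uty lay the other way, at 3.34 and 3.52 in knockout, against 6.13 and 6.48 in wild type. Eif2s3y and Kdm5d, also Y-linked, lay lower in both knockout arrays too, with differences of -4.58 ± 0.44 and -1.63 ± 0.21. Genotype, these sex-linked transcripts and the sex of the cells therefore cannot be told apart in any result below. Klf7 itself read 6.59 and 6.18 in knockout, against 5.95 and 6.10 in wild type (0.36 ± 0.21, SE). The sources used here do not say whether its probe set lies inside the deleted part, and it does not check the labels.

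None of the 10 member probe sets passed the threshold, and their adjusted p-values lay between 0.945 and 1. For 6 of the 10 both knockout arrays lay above, or both below, both wild-type arrays (no overlap), with the knockout arrays on the higher side for 4 and on the lower side for 2. Over all probe sets tested, 33.6% had no overlap, 13.9% with knockout higher and 19.6% with knockout lower. The median difference of the 10 was 0.16, against -0.030 over all probe sets. The median absolute difference was 0.37 for the member probe sets, against 0.16 over all. Of the 10, 3 differed by 0.5 or more in either direction, as did 10.7% of all. All 10 had means above 5.71, the median over probe sets. That median is not a detection limit, and no detection calls were used, so these levels do not show that a transcript was detected. With 2 arrays in each group, no difference described below is separated from the spread between arrays by the adjusted test.

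**Figure D1:**
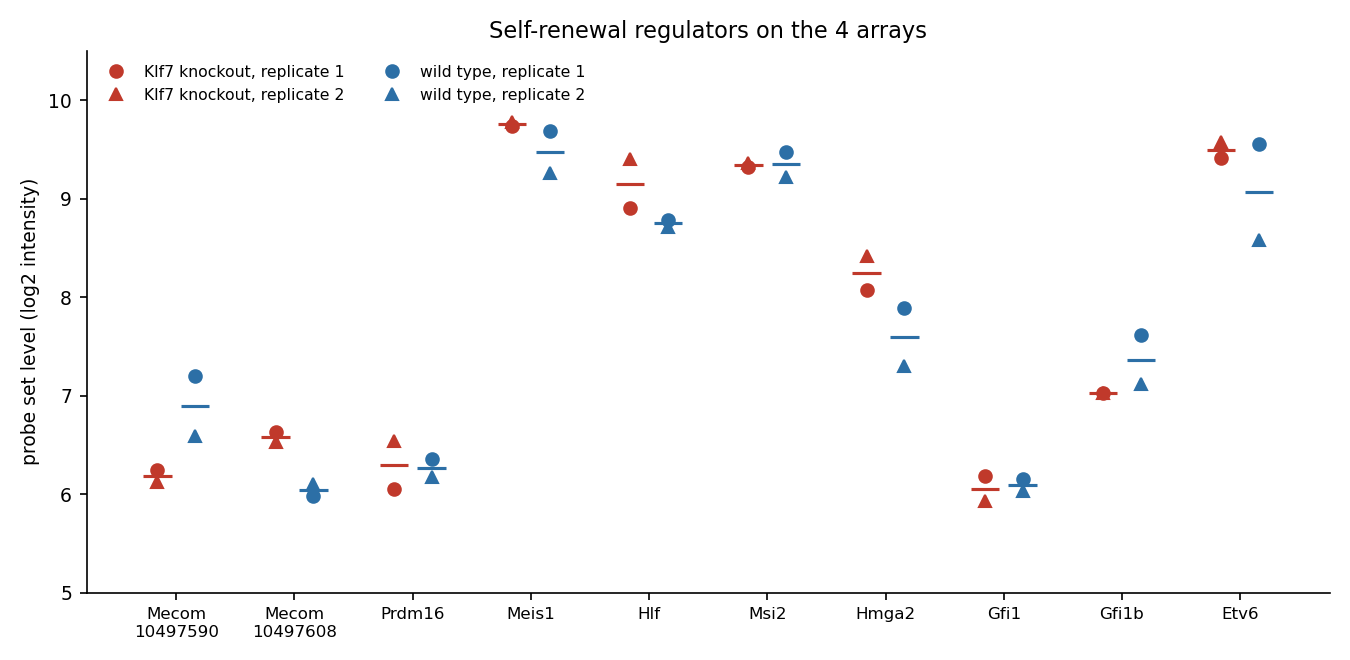
Level of each member probe set (log2 intensity) on the 4 arrays, with knockout in red left of wild type in blue, circles for replicate 1, triangles for replicate 2 and a short line for the group mean. Mecom is shown for each of its 2 probe sets. The groups are apart without overlap for both Mecom probe sets, Meis1, Hlf, Hmga2 and Gfi1b, and wild-type replicate 2 of Etv6 lies alone at 8.58.

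Mecom gave opposite readings on its 2 probe sets. Probe set 10497590 read 6.25 and 6.13 in the knockout arrays, against 7.20 and 6.59 in the wild-type arrays. Both knockout arrays lay below both wild-type arrays, and the difference was -0.71 ± 0.25 (SE, n = 2 per group), with a 95% confidence interval of -1.37 to -0.038. Probe set 10497608 read 6.63 and 6.53 in knockout, against 5.98 and 6.10 in wild type. Here both knockout arrays lay above both wild-type arrays, and the difference was 0.54 ± 0.16, with an interval of 0.12 to 0.96. Each interval leaves out 0 before adjustment for the number of probe sets, and the limma adjusted p was 0.945 for both. With an array left out, the first probe set ran between -1.01 and -0.40 and the second between 0.48 and 0.60, each on its own side of 0. Before adjustment, 5.01% of all probe sets had a limma p under 0.05.

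The 2 Mecom probe sets are paired by the platform annotation with different transcripts of the gene. The first is listed with 7 accessions and the second with 3, and 1 accession stands with both. RefSeq lists Evi1, Mds1 and Mds1-Evi1 among the older names of Mecom; as background, the longer protein made from the upstream start carries a PR domain that the Evi1 form lacks. The sources used here give no positions of the probes, and neither probe set is assigned to a start.

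Because a probe set's own brightness cancels when 1 probe set is followed across arrays, the gap between the 2 Mecom probe sets was compared between genotypes. The log2 level of 10497590 minus that of 10497608 was -0.38 and -0.41 in the knockout arrays, against 1.22 and 0.49 in the wild-type arrays. The knockout arrays were nearly equal and lay below both wild-type arrays, which were further from each other. The difference of these gaps was -1.25 ± 0.31 (SE, n = 2 per group), with an interval of -2.28 to -0.22. The limma unadjusted p was 0.0314, and 0.0535 with the replicate number as a block. The same fit was made for all 1851 pairs of probe sets from the 999 genes with several, and the limma adjusted p for Mecom was 0.594. In that fit 0 pairs passed the threshold (0%), 7.35% had an unadjusted p under 0.05, 35.1% had no overlap between the groups, and Mecom was number 97 by p and number 123 by size. The knockout minus wild type difference of the gap was at least as large as that of Mecom, in either direction, in 6.65% of pairs. Both probe sets were without overlap and in opposite directions in 3.08% of pairs, Mecom among them. Pairs of one gene share its brightest probe set and are not independent. Genes with many probe sets therefore weigh more in these shares and ranks. The pairs were not matched to Mecom in brightness, and some hold a second probe set far dimmer than the first.

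**Figure D2:**
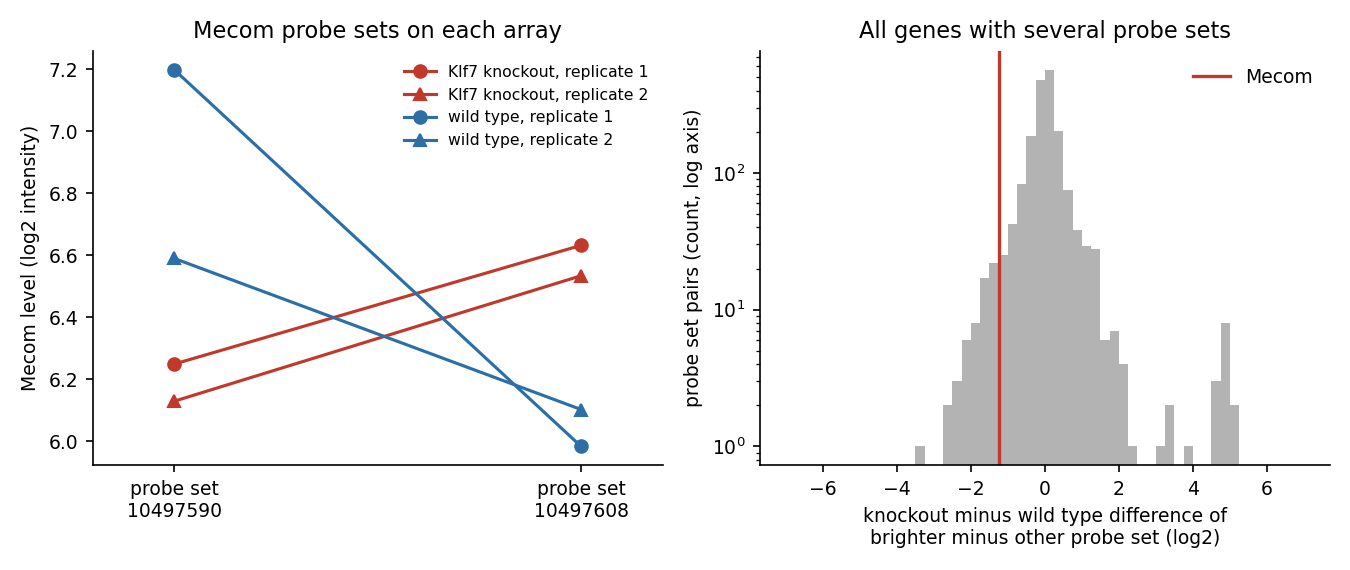
Left, log2 intensity of the 2 Mecom probe sets joined by a line for each array, knockout in red and wild type in blue. Right, for 1851 pairs of probe sets of one gene, the knockout minus wild type difference of the gap between them (log2), with the count of pairs on a log axis; Mecom, at -1.25, is the red line. The lines of the knockout arrays slope upward and those of the wild-type arrays slope downward.

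Prdm16, the closest relative of Mecom, had overlapping groups. It read 6.05 and 6.54 in knockout, against 6.36 and 6.18 in wild type, so that both wild-type arrays lay between the knockout arrays. The difference was 0.028 ± 0.23, with an interval of -0.58 to 0.63.

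The homeodomain factor Meis1 was among the brighter member probe sets. It read 9.74 and 9.77 in the knockout arrays, against 9.69 and 9.25 in the wild-type arrays. The knockout arrays were close together and just above wild-type replicate 1, and the difference was 0.29 ± 0.21, with an interval of -0.26 to 0.83. It was 0.070 without wild-type replicate 2 and 0.50 without wild-type replicate 1. Hlf read 8.90 and 9.40 in knockout, against 8.78 and 8.72 in wild type. The wild-type arrays were close together and both below the knockout arrays, with a difference of 0.40 ± 0.22 and an interval of -0.18 to 0.99. It was 0.15 without knockout replicate 2 and 0.65 without knockout replicate 1.

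Msi2, an RNA-binding protein that controls translation in stem cells, differed between the groups by less than the spread between replicates. It read 9.32 and 9.36 in knockout, against 9.47 and 9.22 in wild type. The groups overlapped, the difference was -0.0076 ± 0.17, and the interval of -0.46 to 0.45 leaves out a change of 2-fold in either direction.

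Hmga2 had the largest positive difference of the 10 probe sets. It read 8.07 and 8.42 in the knockout arrays, against 7.89 and 7.30 in the wild-type arrays. All knockout values were above all wild-type values, with a difference of 0.65 ± 0.27 (SE, n = 2 per group), 1.57-fold, and an interval of -0.059 to 1.36 that holds both 0 and a change above 2-fold. The limma adjusted p was 0.945. With an array left out the difference ran between 0.36, without wild-type replicate 2, and 0.94, without wild-type replicate 1. In fetal stem cells Hmga2 is kept high by Lin28b, which blocks let-7 microRNAs. Lin28b, named here after its values were seen, read 4.15 and 4.31 in knockout, against 4.51 and 4.58 in wild type. It thus lay on the other side from Hmga2, with a difference of -0.32 ± 0.16, and on all 4 arrays it was dimmer than 4.75, the 25th percentile of probe set means. Of the same axis, Igf2bp1 and Igf2bp3, which encode RNA-binding proteins, had overlapping groups and differences of -0.074 and -0.072.

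Of the related repressors Gfi1 and Gfi1b, only Gfi1b had groups without overlap. Gfi1 read 6.18 and 5.93 in knockout, against 6.16 and 6.03 in wild type. The groups overlapped, and the difference was -0.040 ± 0.18 with an interval of -0.51 to 0.43. Its side turned, to 0.088 without knockout replicate 2 and to 0.025 without wild-type replicate 1. Gfi1b, which acts in stem cells and in the erythroid and megakaryocyte lineages, read 7.02 and 7.03 in knockout, against 7.61 and 7.12 in wild type. The knockout arrays were 0.0037 apart and both below the wild-type arrays. The difference was -0.34 ± 0.22 with an interval of -0.93 to 0.24, and it was -0.093 without wild-type replicate 1 and -0.59 without wild-type replicate 2. Whether Gfi1 and Gfi1b differ from each other in their response was not tested.

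Beside Gfi1b, the summed intensity of the 5 measured of 8 erythroid markers was 808.8 and 626.3 in knockout, against 472.8 and 639.3 in wild type. The sum of 6 of 7 megakaryocyte and platelet markers was 858.1 and 712.8 in knockout, against 815.8 and 621.3 in wild type. Both sums overlapped between the groups. Of the 5 erythroid markers, 3 had a positive and 2 a negative difference. Car1 had the largest, at 0.86 ± 0.65, and overlapped. Slc4a1 and Tfrc lay higher in knockout without overlap, at 0.28 ± 0.16 and 0.18 ± 0.15, where 33.6% of all probe sets had none. Ppbp, a platelet chemokine gene named after its values were seen, had the largest difference of the megakaryocyte list. It read 6.00 and 5.47 in knockout, against 4.85 and 4.14 in wild type, without overlap, at 1.24 ± 0.33 and a limma adjusted p of 0.945. Its mean over the 4 arrays lay below 5.71, the median over probe sets. Pf4, the brightest of the megakaryocyte list, was at 0.28 ± 0.33 and overlapped. Gp5 lay the other way, at -0.52 ± 0.33, and overlapped too. Of the 6 measured, 5 had a positive and 1 a negative difference. The part of these markers in the result was not tested.

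Etv6 showed how far 1 array could carry a difference. It read 9.41 and 9.58 in the knockout arrays, against 9.56 and 8.58 in the wild-type arrays. Only wild-type replicate 2 stood apart, and the groups overlapped. The difference was 0.43 ± 0.36, with an interval of -0.52 to 1.38, the widest of the 10, and it was -0.061 without that array.

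Wild-type replicate 2 was the lowest of the 4 arrays for 5 of the 10 probe sets, namely Meis1, Hlf, Msi2, Hmga2 and Etv6. Knockout replicate 2 was the highest for 5, namely Prdm16, Meis1, Hlf, Hmga2 and Etv6. The gap between the 2 knockout arrays ran from 0.0037 to 0.49 over the member probe sets, with a median of 0.14, and that between the 2 wild-type arrays from 0.068 to 0.98, with a median of 0.34. Over all probe sets these medians were 0.21 in knockout and 0.23 in wild type. The wild-type gap was the larger one for 7 of 10. For 7 of the 10 the confidence interval lay within 2-fold either way, as it did for 77.1% of all probe sets. The exceptions were Mecom probe set 10497590, Hmga2 and Etv6.

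**Figure D3:**
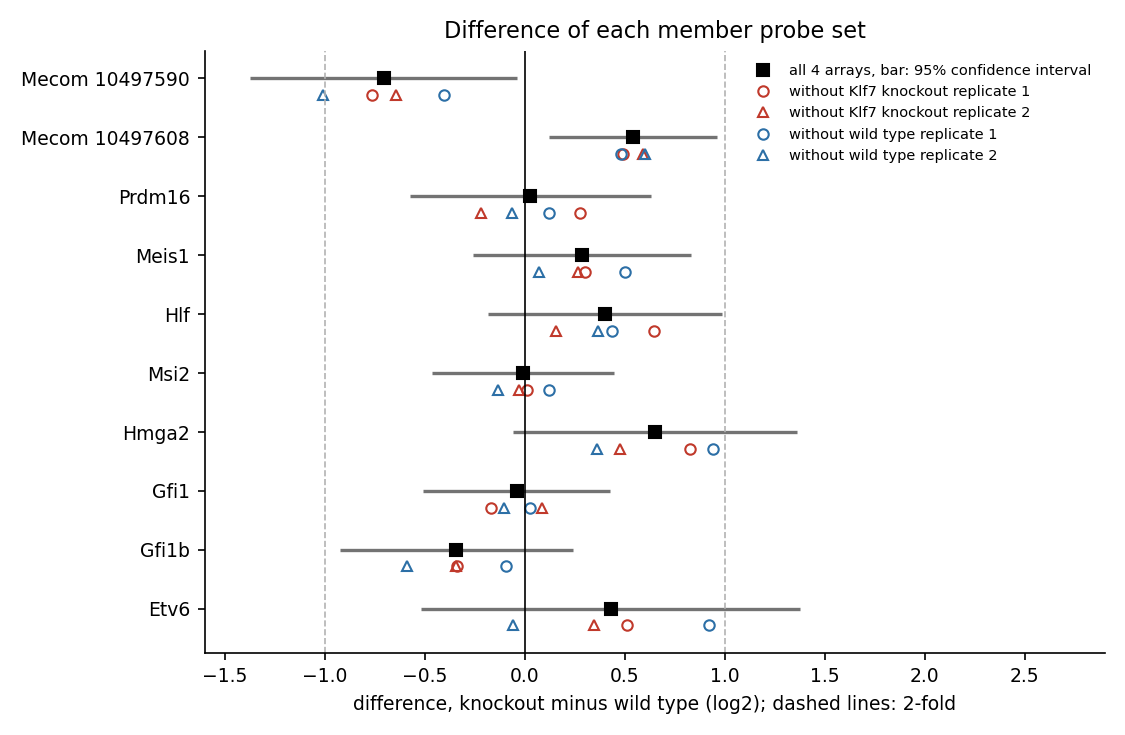
Difference of each member probe set, knockout minus wild type (log2). Black squares give the fit on all 4 arrays and grey bars its 95% confidence interval, open symbols give the difference with 1 array left out, and dashed lines mark 2-fold. Both Mecom probe sets stay on their own side of 0 whichever array is left out, and Etv6 runs from -0.061 to 0.92.

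The other genes of this network were divided into 3 lists: close paralogues, partner proteins, and targets or linked genes. None of their members passed the threshold in either direction. Of 10 paralogues 8 were measured by a probe set with 1 symbol, 2 with a positive and 6 with a negative difference, and 5 of the 8 had no overlap between the groups, where 33.6% of all probe sets had none. Their median was -0.22, against -0.030 over all probe sets. The largest difference was that of Etv3, an ETS repressor related to Etv6, which read 7.17 and 6.36 in knockout, against 7.73 and 7.23 in wild type (-0.71 ± 0.35). The PAR bZIP genes Tef and Dbp, relatives of Hlf, had -0.26 ± 0.15 and -0.24 ± 0.20. The negative side for these is opposite to that of Hlf and Etv6. Meis2, a relative of Meis1 named after its values were seen, read 4.25 and 4.38 in knockout, against 3.62 and 3.82 in wild type, all dimmer than 4.75, with a difference of 0.59 ± 0.17 and a limma adjusted p of 0.945.

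Of 20 partners 16 were measured, 8 on each side, with a median of 0.054 and 4 without overlap, where 33.6% of all probe sets had none. Hoxb4, which expands stem cells when overexpressed, read 5.76 and 5.98 in knockout, against 5.73 and 7.28 in wild type. Only wild-type replicate 2 stood apart in that -0.64 ± 0.54. Smad3, a mediator of TGF-beta signals that Mecom protein can bind, read 6.55 and 6.60 in knockout, against 7.44 and 6.54 in wild type, and there it was wild-type replicate 1 that stood apart. Among the Meis1 partners, 2 were chosen after their values were seen, Hoxa9 and Pbx3. Hoxa9 read 6.79 and 6.94 in knockout, against 6.36 and 6.79 in wild type. Pbx3 read 5.74 and 5.14 in knockout, against 4.42 and 5.02 in wild type, a difference of 0.72 ± 0.32 without overlap. The mean of Pbx3 over the 4 arrays lay below 5.71, the median over probe sets. The groups overlapped for the other 3 measured Meis1 partners of the same families beside Hoxb4, with 0.11 ± 0.20 for Hoxa7, -0.035 ± 0.18 for Hoxa10 and -0.25 ± 0.40 for Pbx2. The corepressors of Gfi1 and Gfi1b had overlapping groups for Kdm1a (0.17 ± 0.28), Rcor1 (0.33 ± 0.43) and Hdac2 (0.17 ± 0.31). Hdac1 had groups without overlap on the brighter of its 2 probe sets, at -0.22 ± 0.17. On the other probe set the groups overlapped, at -0.0043. The partner Sin3a, named after its values were seen, lay higher in knockout without overlap, at 0.32 ± 0.23.

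Of 15 targets and linked genes 12 were measured, 4 on the positive and 8 on the negative side, with a median of -0.045 and 2 without overlap, below the 33.6% of all probe sets. Hgf, a growth factor gene linked to Prdm16, read 6.60 and 7.14 in knockout, against 6.69 and 5.50 in wild type (0.77 ± 0.46). The groups overlapped, and wild-type replicate 2 was the low array. Gata2, a stem cell factor gene activated by Mecom, read 6.87 and 6.67 in knockout, against 7.28 and 6.66 in wild type. Hif1a, the hypoxia factor gene activated by Meis1, read 7.59 and 6.69 in knockout, against 7.53 and 6.38 in wild type. In both groups its replicate 1 was the higher array, so the spread within groups exceeded the difference of 0.19 ± 0.50 between them.

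**Figure D4:**
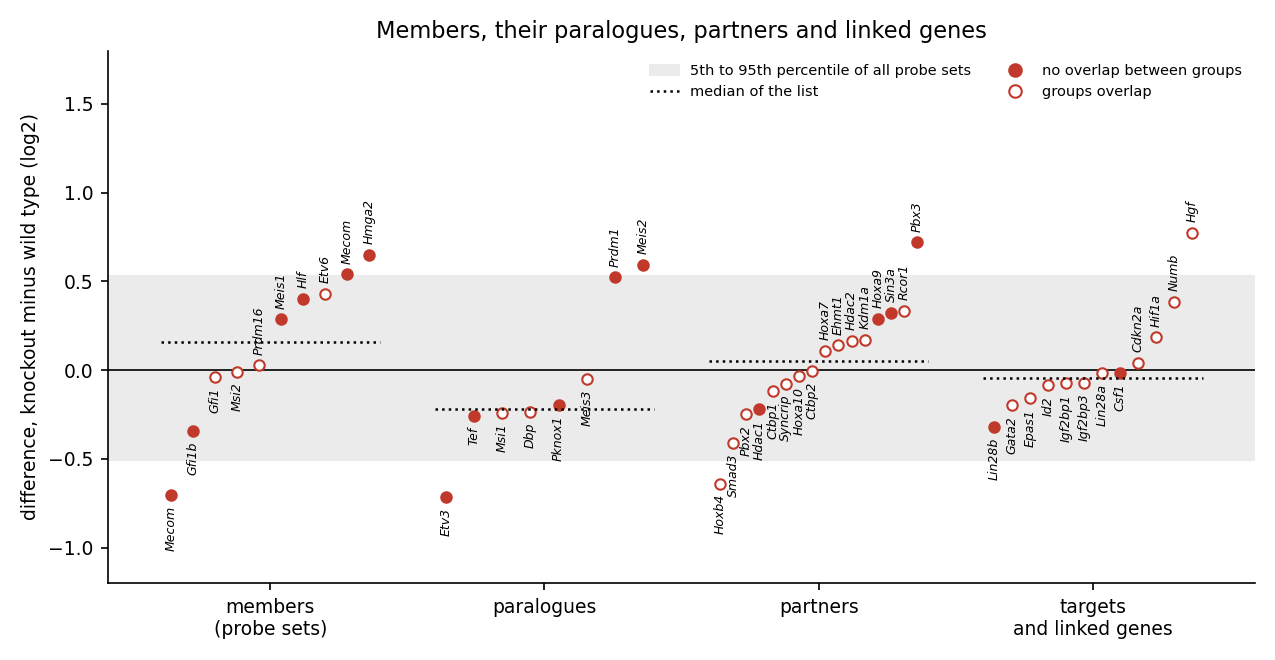
Difference, knockout minus wild type (log2), of the member probe sets and of the measured paralogues, partners and linked genes, sorted within each list. Filled points have no overlap between the groups, dotted lines are list medians, and the grey band spans the 5th to 95th percentile of all probe sets, -0.51 to 0.53. Mecom has the lowest point of the member list and another just under Hmga2, the highest.

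The sort was set against its own markers and those of other cells. Kit, an antigen of the sort, read 10.12 and 9.92 in knockout, against 9.55 and 9.71 in wild type; the Sca-1 gene Ly6a had no probe set with only its own symbol. Stem cell markers, 7 of 8 measured, summed to 268.6 and 291.6 in intensity in knockout, against 312.2 and 291.8 in wild type. These sums did not overlap and lay lower in knockout, although the nearest arrays were almost equal. Only 1 of the 7, Procr, had a mean over the 4 arrays above 5.71, the median over probe sets, so the sums come mostly from dim probe sets. Of the 7 markers, 2 had a positive and 5 a negative difference. Esam, named after its values were seen, had the largest, at -0.39 ± 0.16, and was dimmer than 5.71, the median over probe sets, on all 4 arrays. Slamf1 lay higher without overlap, at 0.079 ± 0.15, and Procr, the brightest of the list, overlapped at 0.011 ± 0.16. Progenitor markers, 6 of 7 measured, summed to 2315.5 and 2511.3 in knockout, against 1812.6 and 1870 in wild type, higher in knockout without overlap. The brightest of them carried that sum, with Cd48 at 0.50 ± 0.23, Flt3 at 0.48 ± 0.19 and Dntt at 0.34 ± 0.18. Il7r, named after its values were seen, lay lower without overlap, at -0.29 ± 0.20, and Rag1 and Rag2 overlapped, at -0.072 ± 0.35 and 0.084 ± 0.25. Markers of each mature cell type overlapped in their sums, which the brightest genes carry. For 9 granulocyte markers these were 4319.7 and 2275.5 in knockout, against 3473.8 and 2962.7 in wild type, and for 6 of 7 monocyte and macrophage markers 504.5 and 486.4 in knockout, against 496.7 and 557.6 in wild type. Among the granulocyte markers, Elane, the neutrophil elastase gene, read 5.04 and 5.41 in knockout, against 6.83 and 5.75 in wild type, without overlap, a difference of -1.07 ± 0.40. Camp and Ngp lay the other way, at 0.52 ± 0.60 and 0.49 ± 0.37, with overlapping groups. Of the 9 granulocyte markers, 5 had a positive and 4 a negative difference. For 6 of 7 B cell markers the sums were 609.9 and 251.2 in knockout, against 309.5 and 267.3 in wild type, with Vpreb1 at 8.59 in knockout replicate 1 alone. For 8 T and NK cell markers they were 604.7 and 685.9 in knockout, against 552.7 and 762 in wild type. Of these 8, 1 had a positive and 7 a negative difference. The positive one was Nkg7, the brightest of the list, at 0.23 ± 0.31 with overlapping groups. Thy1, at -0.48 ± 0.19, and Cd3e, at -0.10 ± 0.15, lay lower without overlap, where 33.6% of all probe sets had none. No member of these lists passed the threshold, and none of those measured had a mean below the 5th percentile of all probe sets. Their part in the members' differences was not tested.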

How the data were processed

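The authors deposited 1 table of intensity values, with a row for each probe set and a column for each array. The submitters' processing notes name RMA and Affymetrix Expression Console, with no versions or settings. The intensities reached 17720.8 and were therefore read as linear, and log2 was taken with no further normalization (array medians 51.01 to 52.26). The leading 6615 of 35554 rows, before the first annotated probe set, were taken as controls and left out. Symbols came from the platform annotation, and current symbols, gene positions and promoter sequences from RefSeq (GRCm38.p6). For any other gene, the brightest of its probe sets was used.

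Knockout minus wild type was fitted over all 28939 probe sets with limma 3.58.1 in R 4.3.3 (lmFit, eBayes, two-sided, Benjamini-Hochberg, threshold 0.05, 2 residual degrees of freedom). SE is moderated. For genes with several probe sets, the brightest minus each other probe set was fitted the same way. The knockout minus wild type fit was tested on simulated arrays with variances drawn from its own prior. The fit of probe set pairs was not simulated. Every member probe set is named. Of the paralogues, partners and linked genes, the rule named members past the threshold or else the 3 that differed most among those brighter than the median probe set. Other genes of these lists that are named stand outside this rule. Members and lists were chosen with earlier results of these data known. Detection calls were not used here, and the number of arrays limits the precision. Equal replicate numbers are not said to mark a shared mouse, and the correlation of the pairs' deviations over probe sets was 0.0434. Alternatives were quantile normalization again, cyclic loess, an offset of 32, a filter at the 25th percentile, an intensity trend with and without robust estimation, the replicate block, each array left out, all rows kept, and the mean of a gene's probe sets.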

Additional observations from a re-analysis of the deposited data

How the results depend on the processing

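The count of member probe sets past the threshold was 0 in limma in all 12 alternatives, as was that of paralogues, partners and linked genes. Before adjustment, 2 member probe sets, both of Mecom, had a limma p under 0.05, as did 5.01% of all; over the alternatives the number ran from 0 to 3. Mecom probe set 10497590 had an unadjusted p of 0.0576 with the offset, 0.0502 with the trend and 0.063 with all rows kept. Member probe sets without overlap numbered 5 to 6 with all arrays, where 32.6% to 34.1% of all probe sets had none, and 7 to 9 on 3 arrays, where 64.2% to 70% had none. On 3 arrays the spread of the single array is taken from the other pair. The count over all probe sets, 1 (Xist), became 0 with quantile normalization again, with the offset of 32, with an intensity trend, with the trend and robust estimation, with all rows kept and with the replicate block, and was 0 to 0 with an array left out; its difference stayed between 5.67 and 6.87, and the cause was not tested. The count of probe set pairs, 0, became 1 (Scn2a) with quantile normalization again and 1 (Scn2a) with cyclic loess.

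Of 142 values of single probe sets and of the Mecom gap, 134 kept their direction and 8 reversed, and none passed the threshold (adjusted p 0.364 and above). The filter, both trend fits, the replicate block and the fit on all rows left each difference as it was, so none could reverse there. The mean of a gene's probe sets could move only Mecom, since the other 8 genes had 1 each. With the mean of both its probe sets, Mecom stood at -0.083, which reverses probe set 10497608 by construction. With an array left out, Prdm16 ran from -0.22 to 0.27 with -0.064 among its values, Msi2 from -0.13 to 0.12, Gfi1 from -0.17 to 0.088 and Etv6 from -0.061 to 0.92. Msi2 was 0.013 without knockout replicate 1 and 0.12 without wild-type replicate 1, Gfi1 was 0.088 without knockout replicate 2 and 0.025 without wild-type replicate 1, and Prdm16 was -0.22 without knockout replicate 2. The Mecom gap stayed between -1.61 and -0.88 with an array left out and between -1.25 and -0.91 otherwise. The replicate block, for which the labels give no shared source, changed no other call at the adjusted threshold; the unadjusted p of the Mecom gap was 0.0535 with it.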
